A study of Mus musculus with 16 samples.

Results

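The 10 genes described here, Pdgfra, Tcf21, Dpt, Gsn, Abca8a, Ddr2, Islr, Cd248, Pi16 and Clec3b, are markers of resting fibroblasts, chosen by symbol from a count table of 54108 named genes. All 10 had a row in the table, and all 10 passed the filter on low counts with 16051 genes in all. The table holds whole-number read counts from mRNA libraries of heart ventricles of 8-week-old mice. Every mouse in the comparison carried floxed Rbpms alleles (Rbpms fl/fl). The 4 control libraries came from mice with no Cre, and the 4 cardiac knockout (cKO) libraries from mice that also carried Myh6-Cre, a Cre recombinase under a promoter active in cardiomyocytes. Replicate 3 of each genotype was female and the other libraries were male. Since no control carried Cre, an effect of the recombinase cannot be told apart from an effect of losing Rbpms. The labels do not say whether tissue was pooled or came from 1 animal per library, so a p-value here speaks only of library-to-library spread, which may be technical. The series has newborn hearts too, which were not analysed here.

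Fibroblasts make and turn over the collagen network between cardiomyocytes. In the uninjured adult heart they rest, carrying the receptor PDGFRα and the transcription factor TCF21 and secreting small matrix proteins. After strain or injury they can become activated, and then they express periostin and more collagen. A rise of fibroblast RNA in whole ventricle can come from more fibroblasts or from more RNA per fibroblast, and in bulk samples these cannot be told apart. The table holds whole tissue and does not show which cells the RNA of the 10 genes came from.

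Totals were 20190334 to 24540433 counts per library, which put 1 count at 0.0396 to 0.0523 CPM (counts scaled to a common library size with TMM factors, the trimmed mean of M-values). The targeted gene Rbpms measured 101.6 to 193 CPM in controls and 26.9 to 38.8 CPM in cKO libraries; the labels and this gene matched in all 8 libraries. Of the 16051 genes tested, 19.3% were called with the quasi-likelihood test of edgeR (adjusted p under 0.05), 9.64% higher and 9.64% lower in cKO. The higher calls made up 50.02% of all calls with TMM and 66.1% when library totals alone set the scale. Mitochondrially encoded genes took 8.04% to 11.8% of counts, the most in control replicate 4.

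Because most of the 10 genes moved together, the stretches of DNA just before their start sites are shown for 4 of them. They are the collagen-fibril protein gene Dpt, the actin-severing protein gene Gsn, the growth factor receptor gene Pdgfra and the transcription factor gene Tcf21. RefSeq promoter windows of GRCm38.p6 were matched for 8 of the 10 genes, 10 windows in all, since Gsn has 3. Each printed stretch runs 5′ to 3′ on the gene's strand and stops before the first annotated start. They lie at chr1:164796413-164796643 on the + strand (Dpt), chr2:35256109-35256358 on the + strand (Gsn), chr5:75152001-75152250 on the + strand (Pdgfra) and chr10:22820175-22820393 on the - strand (Tcf21). Capitals mark the motifs that a search found, on either strand, and the last 2 stretches have none.
Dpt: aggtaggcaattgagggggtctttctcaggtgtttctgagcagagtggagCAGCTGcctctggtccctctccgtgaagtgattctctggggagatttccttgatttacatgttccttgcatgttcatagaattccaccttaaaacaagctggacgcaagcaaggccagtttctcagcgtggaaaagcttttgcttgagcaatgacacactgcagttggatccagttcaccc
Gsn: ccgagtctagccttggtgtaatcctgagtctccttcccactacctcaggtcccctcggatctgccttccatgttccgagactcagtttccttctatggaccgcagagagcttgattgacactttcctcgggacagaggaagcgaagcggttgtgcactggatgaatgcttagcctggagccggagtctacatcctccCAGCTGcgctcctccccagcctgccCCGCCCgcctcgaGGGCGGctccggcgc
Pdgfra: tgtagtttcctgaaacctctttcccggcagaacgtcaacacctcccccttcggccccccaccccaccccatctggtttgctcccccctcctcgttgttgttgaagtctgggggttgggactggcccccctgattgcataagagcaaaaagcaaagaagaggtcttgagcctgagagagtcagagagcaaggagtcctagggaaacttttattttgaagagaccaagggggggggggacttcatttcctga
Tcf21: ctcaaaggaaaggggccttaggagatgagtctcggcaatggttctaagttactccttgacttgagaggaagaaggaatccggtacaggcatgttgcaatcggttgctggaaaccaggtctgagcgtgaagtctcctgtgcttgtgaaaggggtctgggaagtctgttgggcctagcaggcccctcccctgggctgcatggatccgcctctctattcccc
The search covered the 250 bases before each RefSeq start on both strands. It used 6 motifs, and no matches overlapped: the E-box form CAGCTG bound by TCF21-type proteins, the TEAD element GGAATG, the AP-1 site TGANTCA, the GC box GGGCGG, the TATA box TATAAA and the palindromic SMAD box GTCTAGAC. The E-box form stood in 4 of 10 windows, belonging to Dpt, Gsn and Islr, against 13.0% of all 32851 windows. The GC box stood in 3 windows, all of Gsn, against 32.7% of all windows. A TEAD element was found before Abca8a (12.6% of all windows) and a TATA box before a RefSeq start of Ddr2 (12.4%). The windows of Ddr2, Islr and Pi16, and all Gsn windows but the printed one, had another annotated start of the gene further upstream. The matches in those windows of Islr, Ddr2 and Gsn thus stood inside the annotated gene. No AP-1 site (6.7% of all windows) or SMAD box (0.2%) was found, and the windows of Pdgfra, Tcf21 and Pi16 held none of the 6 motifs. A match of letters is a description and shows no binding.

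In cKO ventricles 9 of the 10 genes rose and 0 fell, by edgeR's quasi-likelihood test with adjustment over all 16051 genes. The share of all tested genes called in the higher direction was 9.64%. None of the 10 was lower at an unadjusted p under 0.05, and DESeq2 and limma-voom also called 9 higher and 0 lower. The median log2 fold change of the 10 genes was 0.70, beside 0.01 over all genes tested. Called rises (adjusted p under 0.05, edgeR) of at least 2-fold were found for Pi16 and Islr, 2 of the 10 genes. Of all genes tested, 3.29% met both conditions. Single genes ran from 0.23 for Clec3b to 1.09 for Pi16. The 4 control and 4 cKO values did not overlap for the 9 genes that rose, and 11.8% of all tested genes had cKO values that lay wholly above the controls.

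**Figure D1:**
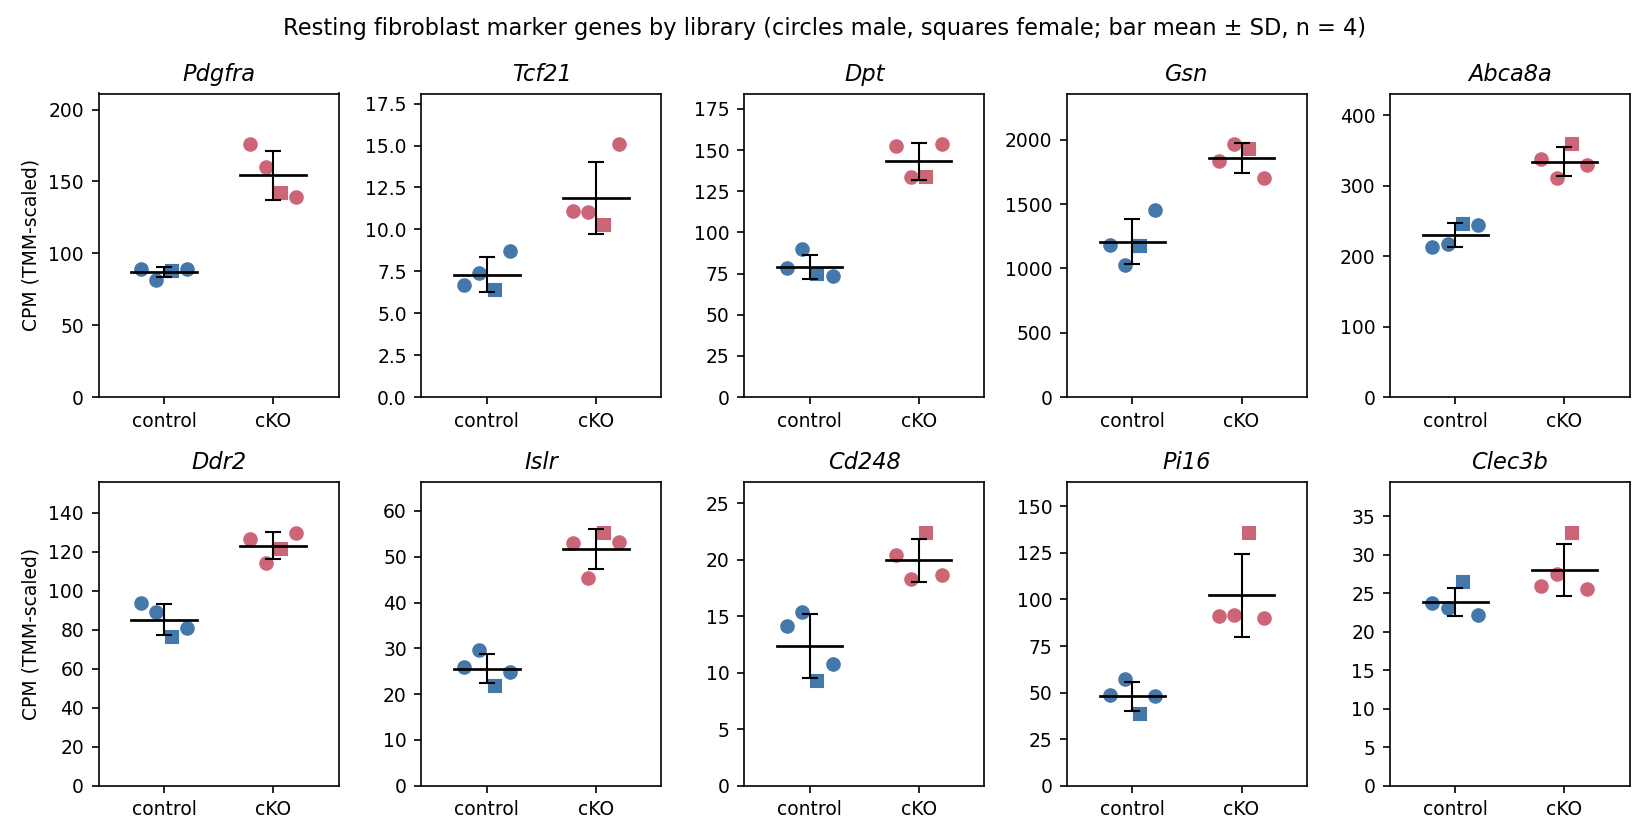
CPM of each of the 10 genes (vertical axes from 0, TMM-scaled) in 4 control and 4 cKO libraries, with circles for male and squares for female libraries and bars for the mean ± SD. All 4 cKO points lie above all 4 control points in 9 panels, and in the Clec3b panel the groups overlap.

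Among the receptors, Pdgfra (ENSMUSG00000029231, chromosome 5, 75152292 to 75198215 in GRCm38) encodes the tyrosine kinase receptor for platelet-derived growth factors that defines most cardiac fibroblasts. It measured 89.1, 81.5, 87.7 and 88.8 CPM in control replicates 1 to 4 and 176, 159.7, 142 and 139 CPM in cKO replicates 1 to 4. The controls lay close together, and every cKO library was above them. The level rose 1.78-fold from 86.8 ± 3.56 to 154 ± 17.2 CPM (mean ± SD, n = 4 each), a log2 fold change of 0.83 ± 0.09 SE (adjusted p = 0.000111, edgeR). Ddr2 (ENSMUSG00000026674, chromosome 1, 169972307 to 170110762) encodes a receptor tyrosine kinase that binds fibrillar collagen. Its CPM was 93.8, 89.2, 76.4 and 81.2 in controls and 127, 114, 121 and 129.8 in cKO libraries. The groups were apart, with the smallest called rise of the set, 1.45-fold and a log2 fold change of 0.53 ± 0.08 SE (adjusted p = 0.00111, edgeR).

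Tcf21 (ENSMUSG00000045680, chromosome 10, 22817281 to 22820174) encodes the basic helix-loop-helix factor that the fibroblast lineage needs during heart development. Its CPM was 6.71, 7.40, 6.40 and 8.73 in controls and 11.1, 11.03, 10.3 and 15.1 in cKO libraries. This was the lowest level of the set, from 148 to 351 counts per library, and cKO replicate 4 stood above the other 3. The rise was 1.63-fold, with a log2 fold change of 0.70 ± 0.15 SE (adjusted p = 0.00794, edgeR) and 0.56 without cKO replicate 4.

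Dpt, Pi16 and Clec3b are described next. Dpt (ENSMUSG00000026574, chromosome 1, 164796644 to 164824266) encodes dermatopontin, a small protein that binds decorin and helps collagen fibrils form. Its CPM was 78.2, 89.8, 74.8 and 73.5 in controls and 152, 133, 134 and 154 in cKO libraries, a gap with no library in between. Dpt rose 1.81-fold (log2 fold change 0.86 ± 0.09 SE, adjusted p = 9.76e-05, edgeR).

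Pi16 (ENSMUSG00000024011, chromosome 17, 29317680 to 29330593) encodes peptidase inhibitor 16, a protein of the CAP family found on fibroblasts around vessels and in many other tissues. Its CPM was 48.7, 57.4, 38.2 and 48.0 in controls and 90.9, 91.9, 136 and 90.0 in cKO libraries. The female control had the lowest value and the female cKO library the highest. Pi16 had the largest rise of the 10 genes, 2.13-fold, with a log2 fold change of 1.09 ± 0.15 SE (adjusted p = 0.000609, edgeR) that was 0.83 in males only and 0.92 without cKO replicate 3. With 1 female per genotype, a difference of this rise between the sexes was not tested.

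Clec3b (ENSMUSG00000025784, chromosome 9, 123150946 to 123157432) encodes tetranectin, a plasminogen-binding lectin-domain protein, and was the gene that did not pass. Its CPM was 23.7, 23.1, 26.5 and 22.2 in controls and 26.0, 27.5, 32.9 and 25.6 in cKO libraries. The groups overlapped, because the female control, at 26.5, was above cKO replicates 1 and 4. The log2 fold change was 0.23 ± 0.10 SE (unadjusted p = 0.0422, adjusted p = 0.141, edgeR), and the exact permutation test on CPM, two-sided, gave p = 0.0857. Over the 19 alternatives the value ran from 0.14 to 0.31 and the adjusted p from 0.058 to 0.368, so Clec3b was not called under any of them.

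Islr and Cd248 encode surface proteins. Islr (ENSMUSG00000037206, chromosome 9, 58156268 to 58204306) encodes meflin, a membrane-anchored protein with leucine-rich repeats that marks mesenchymal stromal cells. Its CPM was 26.0, 29.6, 21.8 and 24.8 in controls and 52.9, 45.4, 55.3 and 53.2 in cKO libraries. The groups lay well apart, and the gene had the smallest adjusted p of the set (8.86e-05, edgeR), with a 2.02-fold rise and a log2 fold change of 1.02 ± 0.10 SE. Cd248 (ENSMUSG00000056481, chromosome 19, 5068078 to 5070682) encodes endosialin, a lectin-domain glycoprotein of stromal fibroblasts and pericytes. Its CPM was 14.1, 15.3, 9.22 and 10.8 in controls and 20.4, 18.3, 22.4 and 18.6 in cKO libraries. The groups did not overlap, with 12.4 ± 2.84 CPM in controls and 19.9 ± 1.88 CPM in cKO libraries (mean ± SD, n = 4 each). The log2 fold change was 0.69 ± 0.15 SE (adjusted p = 0.00811, edgeR), with 0.51 in males only (adjusted p = 0.0298).

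The remaining genes are Gsn and Abca8a. Gsn (ENSMUSG00000026879, chromosome 2, 35256380 to 35307892) encodes gelsolin, which severs and caps actin filaments and is also made by other cells of the heart. Its CPM was 1181, 1029, 1175 and 1452 in controls and 1836, 1966, 1928 and 1703 in cKO libraries, with control replicate 4 the highest control. The log2 fold change was 0.62 ± 0.11 SE (adjusted p = 0.00209, edgeR), a 1.54-fold rise. Abca8a (ENSMUSG00000041828, chromosome 11, 110025634 to 110095978) encodes a lipid transporter of the ATP-binding cassette family. Its CPM was 213, 218, 246 and 245 in controls and 338, 310.5, 359 and 330.1 in cKO libraries, a 1.45-fold rise (log2 fold change 0.54 ± 0.08 SE, adjusted p = 0.000834, edgeR).

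**Figure D2:**
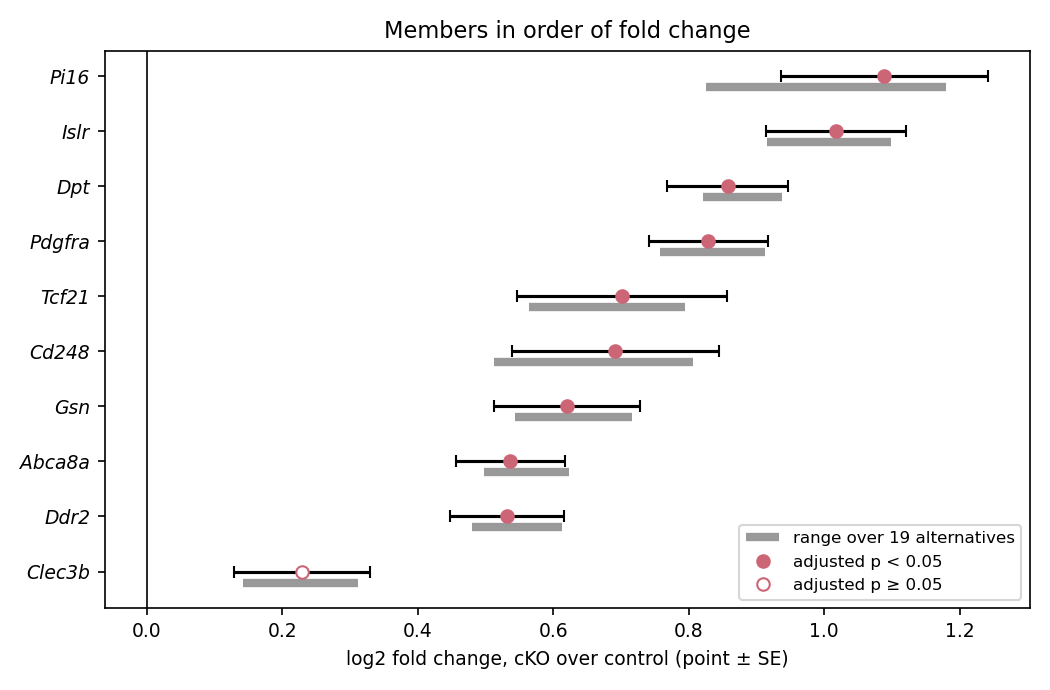
Log2 fold change of each gene, cKO over control, as a point with its SE, filled where the adjusted p was under 0.05, and as a grey bar the range over 19 alternative analyses. Pi16 and Islr lie above 1, Ddr2 and Abca8a near 0.5, and Clec3b, with an open point at 0.23, lies below the other 9.

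The 9 genes that rose had an exact two-sided permutation p of 0.0286 each for their CPM values, the smallest that 4 against 4 libraries can give. Summed over all 10 genes the level was 1640 to 2055 CPM in controls and 2658 to 2941 CPM in cKO libraries, and most of it was Gsn. Without Gsn the sum was 599 ± 10.3 CPM in controls and 969 ± 44.9 CPM in cKO libraries (mean ± SD, n = 4 each).

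Levels can be set against each other between genes only per length, so CPM was divided by the exon length of each gene in GENCODE M21 (CPM per kilobase, an RPKM-type level). That length merged the exons of all annotated transcripts, 10024 bases from 9 transcripts for Pdgfra and 992 bases from 1 for Clec3b. Which transcripts were expressed was not examined, so the order of genes depends in part on the annotation. In controls Gsn was highest at 383 ± 55.9 RPKM, followed by Dpt at 45.9 ± 4.32, Abca8a at 36.8 ± 2.78 and Clec3b at 24.1 ± 1.86 (mean ± SD, n = 4). No control library of these 4 genes overlapped its neighbour in the order. Islr (9.51 ± 1.20), Ddr2 (9.19 ± 0.846), Pdgfra (8.66 ± 0.355) and Pi16 (7.56 ± 1.23 RPKM) followed, with overlapping ranges between each and the next. Cd248 (4.74 ± 1.09) and Tcf21 (3.11 ± 0.440) were lowest and overlapped too. In cKO libraries the first 5 places and the last 2 were unchanged, while Pi16 moved to 16.1 ± 3.54 RPKM and passed Pdgfra (15.4 ± 1.71) and Ddr2 (13.3 ± 0.742). There the ranges of Islr and Pi16, Pi16 and Pdgfra, and Pdgfra and Ddr2 overlapped, and the other neighbours did not.

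Within a genotype the 10 genes did not share one order of libraries. Among controls replicate 2 was highest for Dpt, Islr, Cd248 and Pi16 but lowest for Pdgfra and Gsn. The female control was lowest for Tcf21, Ddr2, Islr, Cd248 and Pi16 and highest for Abca8a and Clec3b. Among cKO libraries the female one was highest for Abca8a, Islr, Cd248, Pi16 and Clec3b and lowest for Tcf21, and cKO replicate 4 was highest for Tcf21, Dpt and Ddr2.

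**Figure D3:**
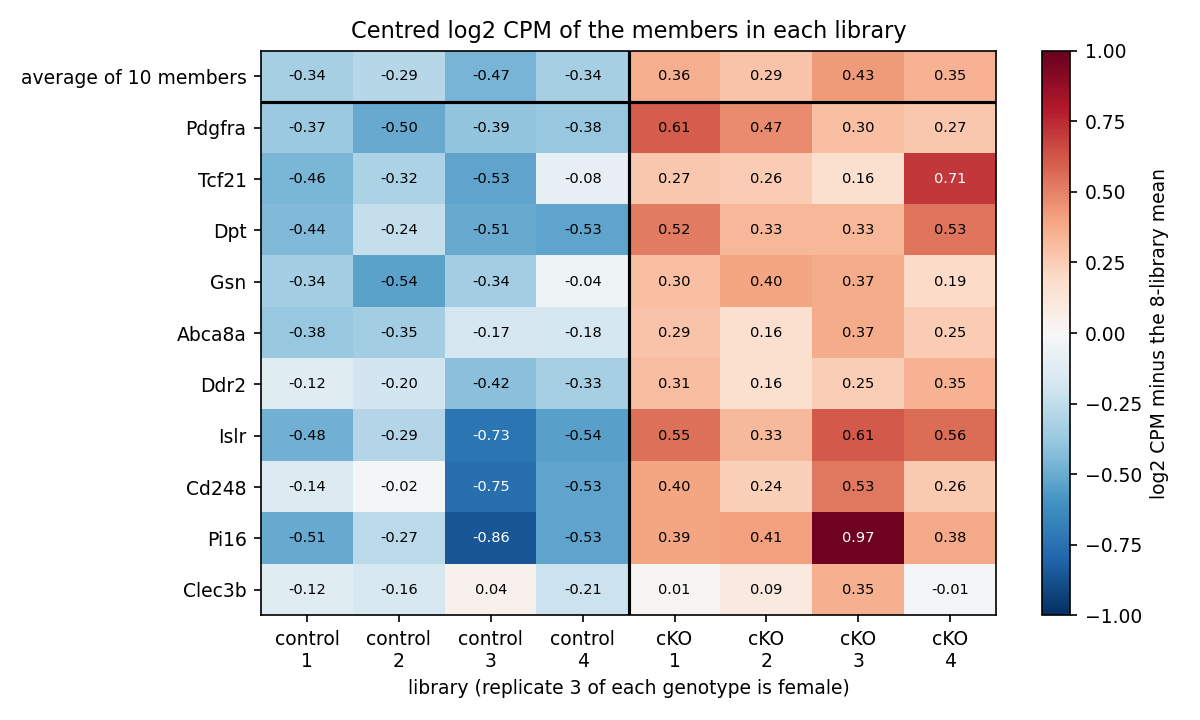
Log2 CPM of each gene minus its mean over the 8 libraries, by library, with the average of the 10 genes in the top row and a line between the genotypes. The average lies between -0.47 and -0.29 in controls and between 0.29 and 0.43 in cKO libraries, while Pi16 spans -0.86 to 0.97 and Clec3b -0.21 to 0.35.

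Ratios within a library show where the genes moved unequally, as a description with no test. The log2 ratio of Pi16 to Clec3b counts was 0.53 to 1.32 in controls and 1.74 to 2.05 in cKO libraries, with no overlap. The log2 ratio of Islr to Ddr2 was -1.85 to -1.59 in controls and -1.33 to -1.13 in cKO libraries, also apart. Both pairs set a gene with a large fold change against one with a small fold change, so their separation follows from that choice. The log2 ratio of Pi16 to Pdgfra overlapped, at -1.20 to -0.51 in controls and -0.95 to -0.06 in cKO libraries. The ratios of Gsn to Pdgfra and of Tcf21 to Pdgfra overlapped between the genotypes too.

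The 5 other genes whose libraries followed the average of the 10 most closely were Fgfr1, Qsox1, Reck, Pmp22 and Kctd11, among 13989 genes whose mean reached 1 CPM. Likeness was the root mean square difference of centred log2 CPM over the 8 libraries, 0.05 for Fgfr1 and 0.06 for the other 4. Fgfr1, a fibroblast growth factor receptor, measured 47.0 ± 1.98 CPM in controls and 76.7 ± 3.53 CPM in cKO libraries (log2 fold change 0.71). The 10 genes themselves lay 0.11 (Ddr2) to 0.28 (Clec3b) from their own average on the same measure. The 5 were picked as the nearest of 13989 and the 10 were not, so these distances cannot be set against each other.

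The platelet-derived growth factor system around Pdgfra moved in parts. Of 6 further genes, 2 rose and 0 fell (edgeR, also 0 at an unadjusted p under 0.05 and by DESeq2 and limma-voom). Pdgfc, a ligand of PDGFRα, measured 4.94, 3.58, 3.49 and 3.87 CPM in controls and 11.7, 12.0, 12.0 and 11.1 CPM in cKO libraries. That is a 2.95-fold rise, with a log2 fold change of 1.56 ± 0.14 SE (adjusted p = 4.73e-05, edgeR). Pdgfrl, a receptor-like protein, rose with a log2 fold change of 1.09. The ligand genes Pdgfa, Pdgfb and Pdgfd did not pass, at -0.04, 0.09 and -0.07 on the log2 scale. Pdgfrb, the receptor carried by pericytes and also by fibroblasts, measured 143 ± 23.2 CPM in controls and 143 ± 19.7 CPM in cKO libraries. The log2 ratio of Pdgfra to Pdgfrb was -0.99 to -0.49 in controls and 0.03 to 0.26 in cKO libraries, with no overlap. Pdgfra rose and Pdgfrb did not, so this separation follows from the choice of pair.

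Among 6 other collagen receptor genes, 3 rose and 0 fell (edgeR, 1 lower at an unadjusted p under 0.05, 0 by DESeq2 and limma-voom). Mrc2, an endocytic collagen receptor of mesenchymal cells, rose by 0.92 on the log2 scale, and the integrin genes Itga11 and Itga2 rose with 0.98 and 1.15, Itga2 from 1.19 ± 0.538 CPM. The call of Itga2 was lost when any of control replicates 2, 3 and 4 or cKO replicates 1 and 4 was left out. Ddr1, the relative of Ddr2 known mainly from epithelial cells, had a log2 fold change of -0.14 ± 0.10 SE (adjusted p = 0.352, edgeR). Itga1 and Itgb1 had -0.27 and -0.08 and did not pass, and Itga1 was called lower without control replicate 3, in males only and with sex as a covariate.

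TCF21 acts as a dimer with the broadly expressed factors encoded by Tcf3, Tcf4 and Tcf12, and Id proteins block such dimers. Id2 and Id3 rose with log2 fold changes of 1.01 and 0.44 (adjusted p = 0.00327 and 0.0234, edgeR), 2 of 6 genes with 0 falling (also 0 at an unadjusted p under 0.05 and by DESeq2 and limma-voom). Id3 was not called without control replicate 4, cKO replicate 2 or cKO replicate 4. The dimer partners had 0.25, 0.06 and 0.18 and, like Id1 at 0.20, did not pass. Tcf12 was called higher with upper-quartile scaling factors and with total counts only, and its cKO values lay wholly above its control values.

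Relatives of the other genes were measured too. In the gelsolin family 3 of 6 tested genes rose and 0 fell (edgeR, also 0 at an unadjusted p under 0.05 and by DESeq2 and limma-voom). Scin, Capg and Avil rose with 0.78, 0.86 and 0.69, all from under 10 CPM in controls, while Svil, Flii and Vill had 0.15, -0.11 and 0.52 and did not pass, though Svil was called higher with total counts only. On chromosome 11 the transporter genes next to Abca8a lie side by side from 109932190 to 110337716. Abca8b rose with 0.78 ± 0.09 SE, above Abca8a itself, and Abca9 with 0.48, while Abca6 and Abca5 had 0.16 and -0.25 and did not pass. The log2 ratio of Abca8a to Abca8b was 2.01 to 2.19 in controls and 1.77 to 1.97 in cKO libraries. Of the 50-base windows of Abca8a transcripts 1.64% also stand, letter for letter, in Abca8b. How reads were shared out between these genes was not examined. Of Islr windows 5.05% are shared with the overlapping gene Islr2, which had 1.25 ± 0.430 CPM in controls. On the opposite strand 4.84% of Pdgfra windows and 3.63% of Pi16 windows are shared with transcripts of other genes, antisense ones among them. For Ddr2, whose exons overlap the antisense gene 3110045C21Rik, the opposite-strand share was 1.10%. The sources used here do not state how the counting treated strand.

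Of 9 tested relatives of Islr, Cd248, Pi16 and Clec3b, 4 rose and 0 fell (edgeR, also 0 at an unadjusted p under 0.05, 0 by DESeq2 and limma-voom). Crispld2, which encodes a secreted protein with a CAP domain as in PI16, rose from 104 ± 10.5 to 178 ± 17.6 CPM (log2 fold change 0.78). Crispld1 rose with 1.14. Clec11a, a lectin-domain relative of Clec3b, rose with 1.89 from 0.715 ± 0.234 CPM. Clec14a, a relative of Cd248 known from endothelial cells, rose with 0.33, while its relatives Cd93 and Thbd had -0.06 and 0.00 and did not pass. Without control replicate 2 the number that rose was 2, with Crispld1 and Clec14a no longer called. Clec14a was also lost in males only and when control replicate 1 or cKO replicate 1 was left out. Glipr2 (log2 fold change 0.59) did not pass by edgeR but did by DESeq2, with sex as a covariate and with no filter.

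**Figure D4:**
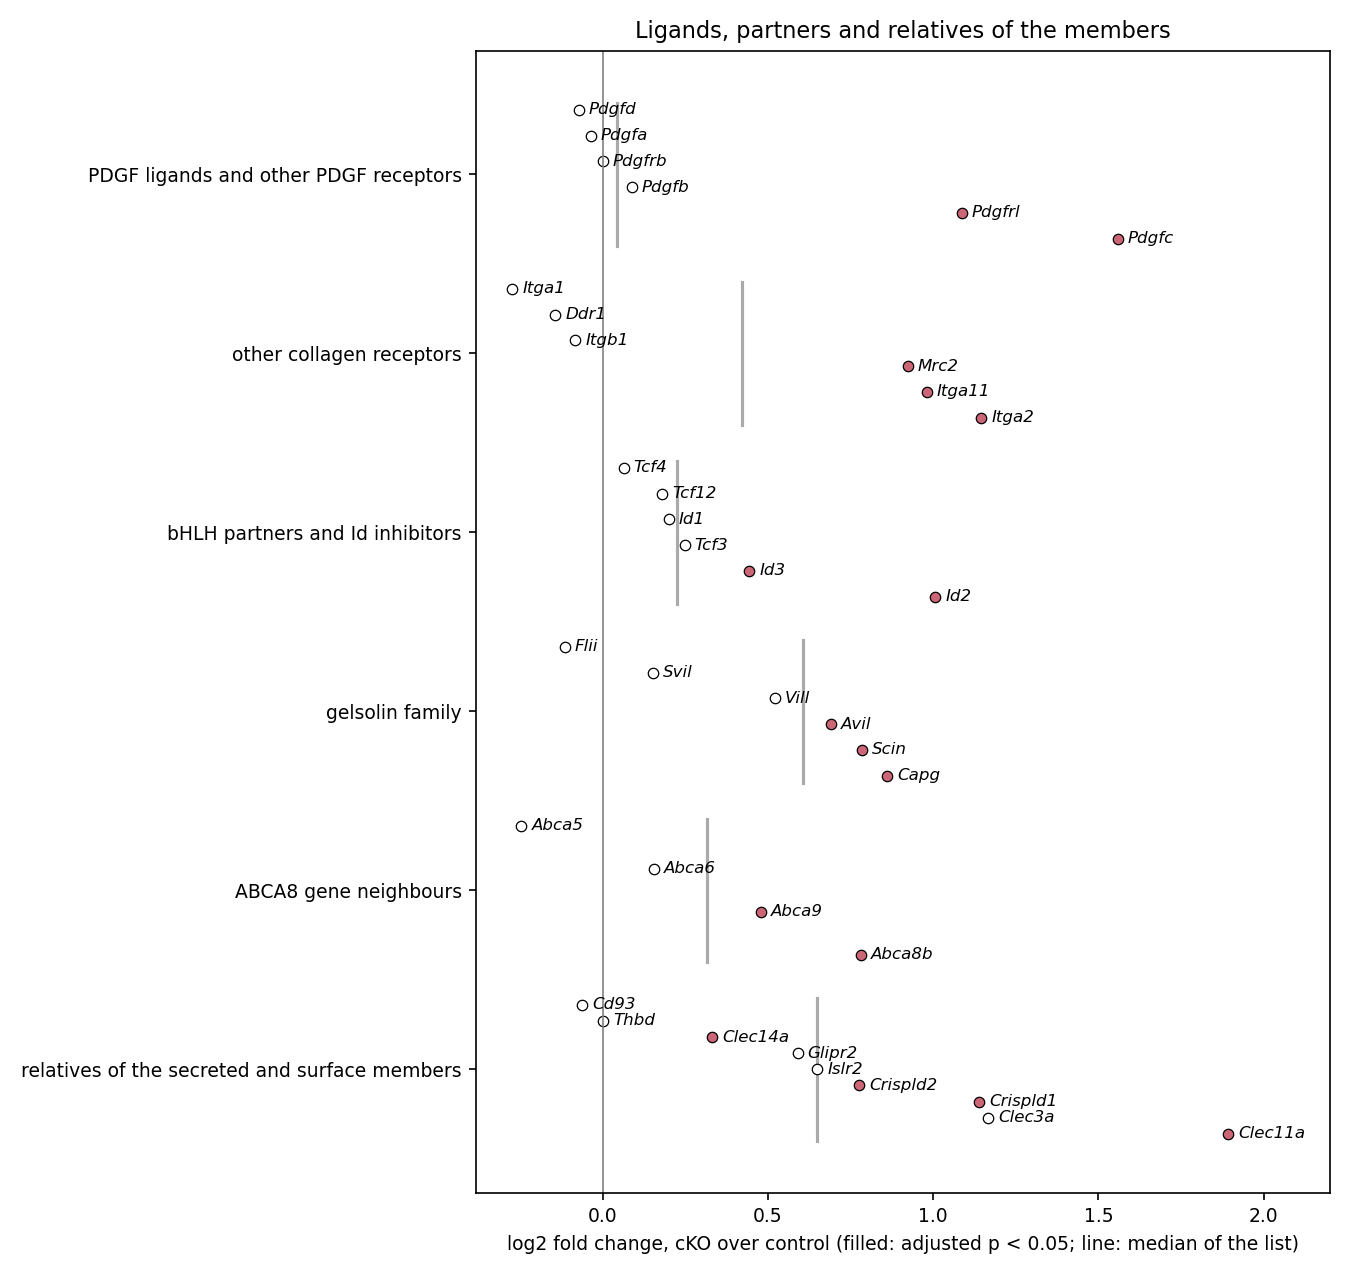
Log2 fold change, cKO over control, of ligands, partners and relatives of the 10 genes, each point a gene, filled where the adjusted p was under 0.05, with a grey line at the median of each group. Pdgfc and Clec11a lie furthest to the right, and Pdgfrb lies at 0.

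A second set of 17 resting fibroblast genes was read out for comparison, and 11 rose and 0 fell (edgeR, also 0 at an unadjusted p under 0.05 and by DESeq2 and limma-voom). Its median log2 fold change was 0.61. Mfap4, a microfibril-associated protein, had the largest value at 2.03. Medag, Dcn and Lum rose with 1.02, 0.89 and 1.31, Dcn being the proteoglycan decorin that dermatopontin binds. The genes Scara5, Smoc2, Fbln1, Dpep1, Adamts5 and Hsd11b1 did not pass by edgeR. Adamts5 (log2 fold change 0.34) was called higher by DESeq2, with sex as a covariate, with no filter on low counts, with total counts only, and without cKO replicate 3 or control replicate 2. Fbln1 (0.37) was called higher with no filter, with total counts only and without control replicate 4. The scavenger receptor gene Scara5 measured 37.6 ± 5.85 CPM in controls and 38.9 ± 7.72 CPM in cKO libraries, and Hsd11b1 had a log2 fold change of -0.42. Hsd11b1, a glucocorticoid-activating enzyme, was called lower without cKO replicate 2 (log2 fold change -0.72, adjusted p = 0.00969, edgeR).

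Genes of activated fibroblasts had larger values. Of 18 tested, 13 rose and 0 fell (edgeR, also 0 at an unadjusted p under 0.05 and by DESeq2 and limma-voom), with a median log2 fold change of 1.45. Postn, the matrix protein periostin, measured 64.4 ± 11.9 CPM in controls and 267 ± 67.0 CPM in cKO libraries. The log2 ratio of Pdgfra to Postn was 0.06 to 0.80 in controls and -1.24 to -0.14 in cKO libraries, with no overlap. Postn had the larger fold change of the pair, so this separation follows from that choice. Cilp and Col8a1 rose with 2.91 and 1.84, and Ltbp2 with 2.47. Acta2, the smooth muscle actin that contractile myofibroblasts share with vessels, had -0.50 and did not pass, and was called lower with sex as a covariate or with no filter on low counts. Fap, Cthrc1, Chad and Runx1 did not pass by edgeR either, with log2 fold changes of 0.33, 1.09, 1.24 and 0.06. Chad was called higher by DESeq2 (adjusted p = 0.0185), in males only, with no filter, with total counts only and without cKO replicate 3. Tnc, a called gene of this set, was lost with robust dispersions.

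Of 8 collagen genes made by fibroblasts, 7 rose and 0 fell (edgeR, also 0 at an unadjusted p under 0.05 and by DESeq2 and limma-voom), with a median of 1.05. Col1a1, the main fibrillar collagen chain, measured 210.0, 167, 82.3 and 223 CPM in controls and 462, 375, 336 and 524 CPM in cKO libraries. The log2 ratio of Pdgfra to Col1a1 overlapped between genotypes, at -1.33 to 0.09 in controls and -1.91 to -1.23 in cKO libraries. The female control had the lowest Col1a1. Col3a1 was not called without cKO replicate 1 or 4 or with robust dispersions. Col5a1 did not pass by edgeR, and was called higher in males only, with sex as a covariate, with no filter, with total counts only, and without cKO replicate 3 or control replicate 1. These 3 sets and the 10 genes were chosen with earlier results of the data known, so their counts describe and do not test the sets.

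Markers of other ventricular cells were read out in the same fit. Of 10 cardiomyocyte markers 3 fell and 0 rose (edgeR, also 0 higher at an unadjusted p under 0.05 and by DESeq2 and limma-voom), with a median log2 fold change of -0.21, and their summed level was 32002 to 39962 CPM in controls and 27415 to 32137 CPM in cKO libraries. Their part in the rise of the fibroblast genes was not tested. None of 8 endothelial markers passed in either direction by edgeR, DESeq2 or limma-voom (0 at an unadjusted p under 0.05), with a summed level of 1114 to 1433 CPM in controls and 1033 to 1247 CPM in cKO libraries. Of 8 mural markers, genes of pericytes and smooth muscle, 1 rose and 2 fell, and their summed level was 1225 to 1426 CPM in controls and 1228 to 1489 CPM in cKO libraries. Those mural calls were not stable, with 0 to 3 higher and 0 to 2 lower when single libraries were left out. The gene that rose was Cspg4 (log2 fold change 0.56), and those that fell were Kcnj8 (-0.35) and Vtn (-0.49). Rgs5, the most abundant mural marker, had a log2 fold change of 0.01. Myh11, Notch3, Cnn1 and Higd1b had 0.30, -0.14, 0.87 and 0.04 and did not pass. Myh11 and Cnn1 were called higher in males only and without cKO replicate 3, and Cnn1 also with no filter on low counts.

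Tcf21 is also expressed in the epicardium, the outer layer of the heart. Of 9 epicardial markers 1 rose (Aldh1a2, log2 fold change 0.74) and 0 fell (edgeR, also 0 at an unadjusted p under 0.05 and by DESeq2 and limma-voom), and none was at 0. Their summed level was 37.6 to 77.4 CPM in controls and 65.4 to 82.9 CPM in cKO libraries. Wt1, Upk3b and Msln, which define that layer, had 0.17, -0.08 and -0.05 and did not pass. Gpm6a, the most abundant of the 9, had 0.30 and did not pass, but was called higher without control replicate 3. Lrrn4, Bnc1, Upk1b and Krt19 had 0.33, 0.32, -0.02 and -0.18 and did not pass. Aldh1a2 was not called in males only, or when any of control replicates 3 and 4 or cKO replicates 1, 3 and 4 was left out. Of 10 macrophage markers 3 rose (Cd163, Lyz2 and Mrc1, with log2 fold changes of 0.61, 0.52 and 0.42), with a summed level of 225 to 349.7 CPM in controls and 364 to 415 CPM in cKO libraries. With sex as a covariate 6 were called higher, and at an adjusted p under 0.01 only Cd163 was. Lyz2 was lost in males only and Mrc1 without cKO replicate 1. Whether these cells bear on the values of the 10 genes was not tested.

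**Figure D5:**
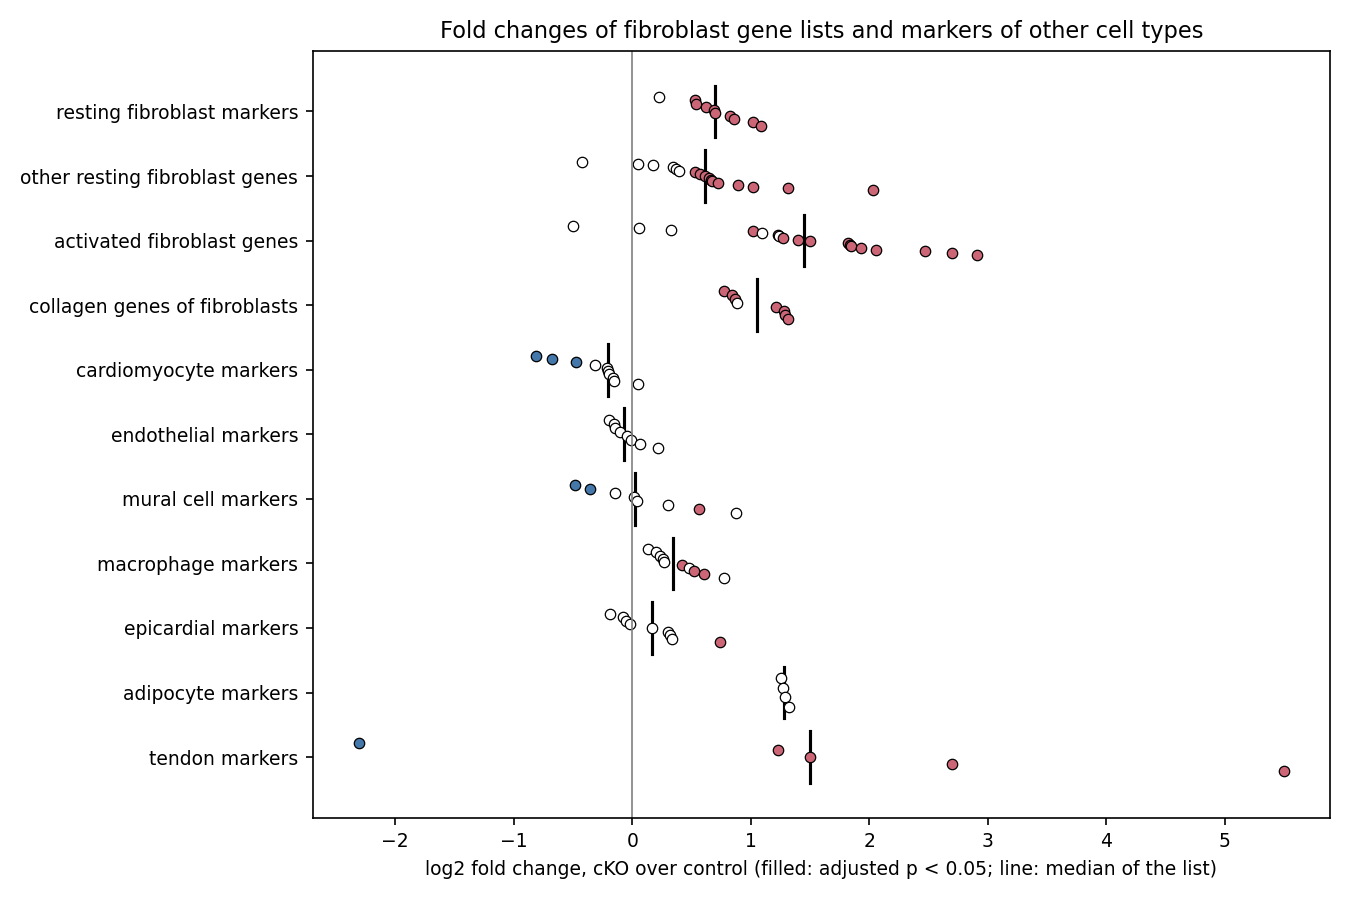
Log2 fold change, cKO over control, of the 10 genes, the 3 other fibroblast sets and markers of other cell types, each point a gene, filled red (higher) or blue (lower) where the adjusted p was under 0.05, with a line at each median. The fibroblast sets have medians of 0.61 to 1.45. Medians of other marker lists are -0.21 (cardiomyocyte), -0.07 (endothelial), 0.03 (mural), 0.17 (epicardial) and 0.34 (macrophage). The adipocyte list, with 0 genes called, has a median of 1.28. Its genes Cfd, Plin1, Adipoq and Cidec were each highest in cKO replicate 4, at 10.4, 6.53, 5.29 and 4.26 CPM. The other cKO libraries had 0.910 to 1.99, 0.989 to 2.61, 0.910 to 1.95 and 0.277 to 1.99 CPM, in that order. The tendon list, which shares Fmod and Thbs4 with the activated set, has a median of 1.499. A raised median was thus not limited to the fibroblast sets.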

How the data were processed

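Stranded mRNA libraries of heart ventricles were read in 8 libraries of 8-week-old mice, 4 per genotype. The authors deposited whole-number counts per gene symbol, 1 column per library. Per the submitters' processing notes, the tools were HISAT2 2.0.4, edgeR 3.30.3, featureCounts 1.6.0 and FastQC 0.11.4 and the builds GRCm38 and mm10, with no role given. The sources used here state neither annotation release nor strand setting. Of 54132 rows, 24 carried no symbol (0.115% to 0.132% of counts) and were left out.

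The test was edgeR 4.0.16 (R 4.3.3, limma 3.58.1), quasi-likelihood, genotype only, TMM, filterByExpr defaults, Benjamini-Hochberg over 16051 genes, threshold 0.05, two-sided. A run on simulated counts checked the code and not the calls made here. SE is the absolute log2 fold change over the square root of F. The common biological coefficient of variation was 0.16. Alternatives included DESeq2 1.42.0, limma-voom, other scalings, filters, sex, males only and each library left out. Libraries of 1 genotype differed beyond sampling noise (chi-square per degree of freedom 7.96 to 35.0).

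Named genes were all 10 markers, up to 4 of each companion list by adjusted p, all genes at 1 CPM or more in lists of up to 6, up to 3 of the most abundant markers of each other cell type, Rbpms and the 5 nearest in pattern. Other named genes were chosen after their values were seen. Ctgf stands for the listed Ccn2 by an older symbol. The members and lists were chosen with earlier results of these data known. Positions are from GENCODE M21 (GRCm38) and promoters from RefSeq (GRCm38.p6). The result of 1 further marker list is not reported here.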

Additional observations from a re-analysis of the deposited data

Results flagged for a closer look

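Each of the 10 genes was examined in each genotype for a library far from the other 3, by the gap to its nearest neighbour as a share of the group's range (20 groups, critical value of Dixon's test). Chance alone flags about 1 in 20 such groups, and 2 were found. Tcf21 was 15.09 CPM in cKO replicate 4, a gap of 0.832 of the range, against 10.3 to 11.1 CPM in the other cKO libraries. Pi16 was 135.9 CPM in cKO replicate 3, the female library, a gap of 0.959 of the range, against 90.0 to 91.9 CPM in the others. Without these libraries Tcf21 had a log2 fold change of 0.56 (adjusted p = 0.0231, edgeR) and Pi16 of 0.92 (adjusted p = 0.000565, edgeR), so both calls held.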

How the results depend on the processing

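The 10 genes gave 9 calls higher and 0 lower under every setting run: 3 other scalings, 2 other filters, DESeq2, limma-voom, robust dispersions, sex as a covariate, males only, no mitochondrially encoded genes, an adjusted p under 0.01 and each of the 8 libraries left out. Their log2 fold changes stayed above 0, and no single call changed in 19 refits per gene. The largest adjusted p among the 9 called genes was 0.0298, for Cd248 in males only. The number of 9 genes with groups apart in CPM also held under the 3 other scalings.

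Counts over all genes moved more, from 1548 higher and 1547 lower to 808 and 817 at an adjusted p under 0.01, and to 1021 lower with total counts only. With libraries left out they were 1129 to 1458 higher and 1093 to 1418 lower. Among activated fibroblast genes 1 was lower, Acta2, with no filter on low counts and with sex as a covariate. Among the other resting fibroblast genes 0 to 1 was lower with libraries left out. The cause of these differences was not tested.

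No paired analysis was possible because the labels give no replicate numbers that tie libraries of the genotypes together. Depth limited Tcf21 most, at 148 to 351 counts per library.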

Other observations

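Cell cycle genes and markers of tendon, fat, lymphoid and atrial cells were read out beside the fibroblast genes and are given as values. Of 8 cell cycle genes 0 rose (edgeR, also 0 at an unadjusted p under 0.05 and by DESeq2 and limma-voom) and 1 fell. Mki67, a proliferation marker, measured 10.3 ± 7.55 CPM in controls and 11.1 ± 5.45 CPM in cKO libraries, and Top2a had a log2 fold change of 0.37 ± 0.60 SE. Cenpf, a kinetochore protein gene, fell from 66.1 ± 23.9 to 21.0 ± 3.41 CPM.

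Of 5 tested tendon genes 4 rose and 1 fell. Scx, the tendon transcription factor scleraxis, rose from 2.49 ± 0.231 to 5.83 ± 1.08 CPM, Fmod and Thbs4 (also counted among activated fibroblast genes) rose, and Mkx, another tendon transcription factor, fell from 1.07 ± 0.267 to 0.213 ± 0.156 CPM. Tnmd was at 0 in 3 of 4 controls and 2.15 to 2.68 CPM in cKO libraries. Of 4 tested adipocyte markers 0 passed by edgeR, DESeq2 or limma-voom (0 at an unadjusted p under 0.05), with log2 fold changes of 1.25 to 1.32 from 1.99 to 11.3 summed CPM in controls. All 4 were highest in cKO replicate 4. In males only 4 adipocyte markers were called higher, with no filter on low counts 3, and without control replicate 3 it was 2. Of 4 tested lymphoid markers and 3 tested atrial markers 0 passed in either direction by edgeR, DESeq2 or limma-voom (also 0 at an unadjusted p under 0.05). With no filter 1 atrial marker was called higher and 1 lower, and without control replicate 1 there was 1 higher. In control replicate 1 Myl7 was 92.6 CPM, beside 17.1 to 32.5 CPM in the other controls and 20.8 to 63.6 CPM in cKO libraries. Myl4 and Sln were instead highest in cKO replicate 4, at 168 and 15.1 CPM, beside 96.0 and 12.3 CPM in control replicate 1. Bmp10, left out by the filter, had 72 counts in control replicate 1, 0 to 2 in the other controls and 2 to 6 in cKO libraries. Whether control replicate 1 or cKO replicate 4 bears on the atrial calls was not tested.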
